A study of Mus musculus with 10 samples.

Results

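H3K27me3 peaks of the R100 lymphoma line were compared with those of the parental line from which it was grown, by promoter, gene family and position in the gene. The members are all distinct peaks of both lists, 10778 in the parental line and 25180 in R100. Merged, they make 31310 regions, beside 47264 regions in all 5 lines of the series, and they were set against the promoters of 37310 annotated genes. Both lines are cultured mouse B cells from an Eμ-Myc lymphoma on the C57BL/6J strain, in which an immunoglobulin heavy-chain enhancer drives Myc in the B-cell lineage, and both lack Cdkn2a (Cdkn2a-/-), which encodes tumour suppressors of the p53 and Rb pathways. The parental line received no mafosfamide (0 nM). R100 was cultured in 100 nM mafosfamide, an activated analogue of cyclophosphamide that crosslinks DNA, and was harvested after 10 days. All lines were profiled in medium without the drug. The same antibody against H3K27me3 was used in both. R100 is called a resistant clone in some of the study's text and surviving cells elsewhere, both lines go back to a single lymphoma line, and there is 1 peak list per line. No difference between them could be tested against the spread between replicates, and the lists hold positions without heights or read counts. Gained, lost and kept therefore describe presence in the lists, and library depth and the level of the mark cannot be told apart.

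H3K27me3 is placed by Polycomb repressive complex 2 (PRC2), whose catalytic subunit is Ezh2 and whose other core subunits are Eed and Suz12. The mark is read by Cbx proteins of Polycomb repressive complex 1 and is removed by the demethylases Kdm6a and Kdm6b. It is best known from CpG-rich promoters of silent developmental regulators such as the Hox genes, and in B cells Ezh2 is most active in germinal centres.

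Stretches of 150 bp from the peaks show what kind of sequence was gained, kept and lost. Each is the stretch nearest the centre of its peak that touches no annotated UTR, on the plus strand of mm9, 5′ to 3′, with CpG dinucleotides in capitals. The first 3 come from the widest gained peaks, in Otx1 (chr11:21900125-21900274, exonic in a transcript of the annotation, 4 CpG), Mmp9 (chr2:164775150-164775299, 91 bp exonic, 10 CpG) and Lhx2 (chr2:38203600-38203749, intronic, 11 CpG).
Otx1, gained: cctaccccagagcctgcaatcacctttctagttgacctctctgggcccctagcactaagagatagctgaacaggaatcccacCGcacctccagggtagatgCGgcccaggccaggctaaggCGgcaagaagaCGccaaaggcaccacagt
Mmp9, gained: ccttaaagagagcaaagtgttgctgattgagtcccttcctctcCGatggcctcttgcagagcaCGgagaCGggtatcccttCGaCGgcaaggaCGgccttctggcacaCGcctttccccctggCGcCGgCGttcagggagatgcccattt
Lhx2, gained: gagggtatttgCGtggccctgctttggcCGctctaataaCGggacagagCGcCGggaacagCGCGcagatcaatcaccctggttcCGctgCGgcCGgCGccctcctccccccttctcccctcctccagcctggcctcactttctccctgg
From the widest kept peaks, apart from a ribosomal RNA repeat, come stretches in Hoxa10 (chr6:52184150-52184299, exonic, 20 CpG) and Hoxa11 (chr6:52194800-52194949, exonic, 5 CpG).
Hoxa10, kept: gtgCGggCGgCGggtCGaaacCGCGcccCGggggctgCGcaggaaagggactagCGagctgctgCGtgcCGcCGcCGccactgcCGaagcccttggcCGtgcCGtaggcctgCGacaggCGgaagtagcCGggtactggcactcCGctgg
Hoxa11, kept: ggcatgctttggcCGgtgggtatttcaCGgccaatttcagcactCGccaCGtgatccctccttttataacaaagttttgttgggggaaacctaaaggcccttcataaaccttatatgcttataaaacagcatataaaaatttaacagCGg
The widest lost peaks lie in intergenic sequence of chromosome 6 (chr6:68386000-68386149, 1 CpG) and in an intron of Fgfr2 (chr7:139674900-139675049, 2 CpG).
Intergenic, lost: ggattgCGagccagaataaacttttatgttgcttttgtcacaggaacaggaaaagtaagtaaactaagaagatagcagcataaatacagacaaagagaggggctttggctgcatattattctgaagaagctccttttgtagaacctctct
Fgfr2, lost: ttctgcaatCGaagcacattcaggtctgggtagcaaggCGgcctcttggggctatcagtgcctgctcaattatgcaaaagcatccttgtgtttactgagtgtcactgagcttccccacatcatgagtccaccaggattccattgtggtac
The last pair is from the widest peaks gained in the first kb downstream of the transcription start site (TSS) of a ribosomal protein gene, Rpl8 (chr15:76734975-76735124, 136 bp exonic, 12 CpG), and of a B-cell gene, Cd79b (chr11:106175425-106175574, intronic, no CpG, with a run of ac repeats).
Rpl8, gained: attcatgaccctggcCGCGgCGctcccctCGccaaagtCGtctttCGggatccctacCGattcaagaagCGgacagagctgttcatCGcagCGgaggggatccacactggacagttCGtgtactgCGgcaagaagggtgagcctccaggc
Cd79b, gained: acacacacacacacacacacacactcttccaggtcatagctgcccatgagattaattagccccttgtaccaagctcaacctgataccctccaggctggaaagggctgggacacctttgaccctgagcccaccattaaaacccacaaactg

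R100 kept the widest parental peaks, broadened most of the regions it shared with the parental line, and held a large number of narrow peaks that the parental list lacked. A peak was counted as gained or lost where it overlapped no base of the other list. Of the R100 peaks, 85.2% were gained (21444 of 25180), and of the parental peaks 58.0% were lost (6253 of 10778). Gained peaks had a median width of 100 bp, kept R100 peaks 400 bp and lost parental peaks 50 bp, the smallest width in the lists. The share gained was 97.8% among R100 peaks of 50 bp and 7.35% among those of at least 1000 bp (48 of 653). The share lost was 80.4% among parental peaks of 50 bp, 5.88% among those of 500 to 950 bp and 0 of 90 among wider ones. In the 3613 regions with a peak in both lines, peaks covered a median of 150 bp in the parental list and of 400 bp in R100. R100 covered more bases in 2806 of these regions, fewer in 529 and as many in 278. These shared regions held 64.8% of all parental bases and 41.9% of all R100 bases.

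Of the 5 widest gained peaks, 3 lay within Otx1, Mmp9 and Lhx2. The first, of 2100 bp (chr11:21899151-21901250), lies 2699 bp downstream of the TSS of Otx1, a homeobox gene of the forebrain. Next came 1850 bp in Mmp9 (chr2:164774301-164776150), which encodes a gelatinase, and 1750 bp in an intron of Lhx2 (chr2:38202801-38204550), a LIM homeobox gene. A peak of 1650 bp (chr11:85657951-85659600) was intergenic, and 1 of 1600 bp (chr11:114652301-114653900) reached into Btbd17. R500, the next line of the escalation, covered 1100, 1250, 1700, 1200 and 150 bp of these 5 peaks, in the same order.

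Among kept peaks the widest, 6000 bp in R100 and 1750 bp of it in the parental line, overlaps AY036118 on chromosome 17, a locus of ribosomal RNA repeat sequence, where reads from different copies cannot be told apart. The Hoxa10 (chr6:52181751-52186700) and Hoxa11 (chr6:52192401-52197350) peaks both spanned 4950 bp in R100, of which the parental line covered 3200 and 2900 bp. Peaks at Sp9, a zinc-finger factor of limb and forebrain (4600 bp, 2850 bp parental), and near Wnt10a (4150 bp, 2400 bp parental) followed. Lost peaks were much narrower. The widest, of 850 bp (chr6:68385651-68386500), is intergenic and absent from R500 as well, and peaks of 750 bp lie in an intron of Fgfr2 (chr7:139674601-139675350) and in intergenic sequence of chromosome 11 (chr11:100401101-100401850).

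Gained and lost peaks also differed in base composition and in their place relative to genes. The median number of CpG per 100 bp, in 500 bp around the peak centre, was 2.2 at gained, 3.2 at kept and 1 at lost peaks, and the median GC content was 52.4%, 53.4% and 44.6%. Of the gained peaks, 20.9% had their centre in the first kb downstream of the nearest protein-coding TSS (4486 peaks) and 9.14% in the first kb upstream. For lost peaks these shares were 3.90% and 4.59%, and 65.3% lay over 5 kb from any such TSS, against 46.9% of gained and 33.5% of kept R100 peaks. The gained peaks just downstream of a TSS were the most CpG-rich of all gained peaks, with a median of 6.6 CpG per 100 bp, against 1.4 for those over 5 kb away. Exons held 22.0% of gained bases, 24.6% of kept R100 bases and 6.62% of lost bases, beside 3.28% of the genome.

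Around the TSS the H3K27me3 peaks of R100 had their maximum just inside the gene. Among the 22380 protein-coding genes, R100 peaks touched 11.0% in the bin from 200 to 300 bp downstream, where the bins are 100 bp wide, while the parental maximum was 2.18%, 600 to 700 bp downstream. For the 16010 genes with no other TSS within 5 kb the R100 maximum was 10.1% in the same bin. With the R100 list reduced to its 10778 widest peaks the maximum over all protein-coding genes was 8.01%. The profile differed by gene class in the way plotted for 4 groups. In developmental transcription factors (207 genes of 5 lists) the mark spread over both sides of the TSS in both lines. The share of genes touched per bin, averaged over the first kb upstream and downstream, was 26.9% and 33.7% in R100. In the parental line it was 10.5% and 12.8%. In cytosolic ribosomal protein genes (85) the mark was one-sided, with 2.24% upstream and 40.4% downstream in R100, and 0.118% and 6.59% in the parental line. Other housekeeping genes (257 genes of mitochondrial ribosomal, translation factor, proteasome and respiratory chain lists) went from a maximum of 1.17% in the parental line to 20.6% in R100, 300 to 400 bp downstream, which became 12.1% with the reduced R100 list.

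**Figure D1:**
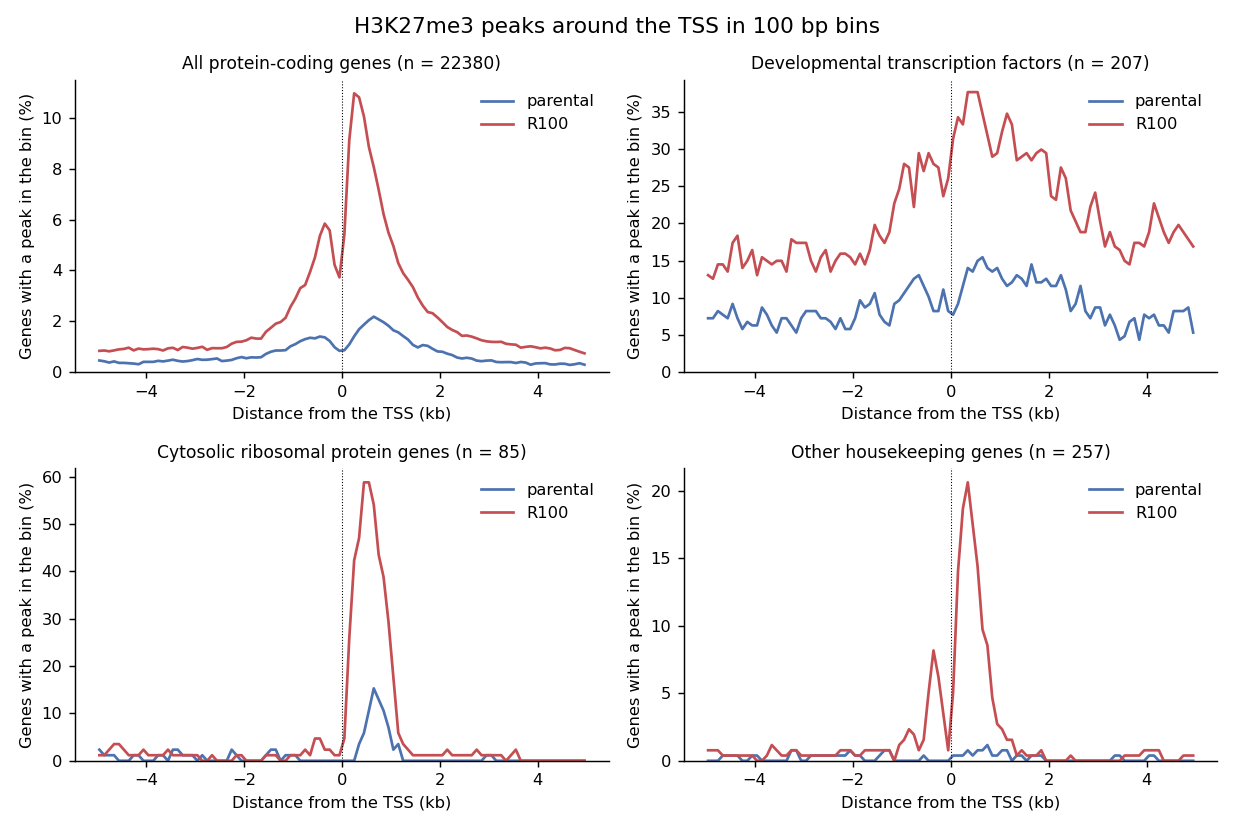
Share of genes with an H3K27me3 peak in each 100 bp bin from 5 kb upstream to 5 kb downstream of the TSS, for the parental line (blue) and R100 (red), in 4 groups of genes, with 1 list per line and no error. R100 peaked at 11.0% of all protein-coding genes, 37.7% of developmental transcription factors, 58.8% of ribosomal protein genes and 20.6% of other housekeeping genes, all downstream of the TSS.

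Upstream of genes, R100 held the mark at many promoters that the parental list lacked, and few promoters went the other way. A promoter was covered where peaks took up 150 bp or more, that is 3 bins of 50 bp, in the 5 kb before the TSS. By this rule 1804 promoters were gained (4.84% of all 37310 genes), 145 were lost (0.389%) and 988 were kept (2.65%). Of the protein-coding promoters 5.97% were gained (1337), 0.483% lost (108) and 3.16% kept (707). In a second window, of 2 kb to either side of the TSS, the gained share was 8.76% of all genes (3267) and 12.4% of protein-coding genes (2766), the lost share 0.174% (65) and 0.188% (42), and the kept share 3.88% (1446) and 5.07% (1134). The larger count in the second window came mostly from genes with the mark inside the gene. Of its 2766 gained protein-coding promoters, 1780 were covered upstream in neither line, and 904 were gained in both windows. Many gained promoters lay near the minimum. In the upstream window 413 had under 200 bp in R100, 965 further promoters with at least 100 but under 150 bp in R100 fell just short of it, and 1343 (74.4%) had no parental base at all. Of the lost promoters 66 had under 200 bp in the parental line and 74 had no R100 base.

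At kept promoters R100 also covered more. The median over the 988 kept upstream windows was 363 bp in the parental and 900 bp in the R100 list, with more in R100 at 836 (84.6%) and less at 126. Within 2 kb it was 450 and 1210 bp, with more in R100 at 1351 of 1446 (93.4%). The promoters with the most covered bases in both lines were those of the stress-induced transcription factor Atf3 (3700 bp parental, 3950 bp R100), of Hoxa9 (3162 and 4338 bp), Hoxa13 (3574 and 3774 bp), Hoxa11 (3487 and 3787 bp) and Hoxa10 (2303 and 4550 bp), of Cbx8, a reader of the mark (2800 and 3733 bp), and of the forkhead gene Foxc1 (2536 and 3450 bp). Every gene named in this group covered more bases in R100, and the Hoxa promoters overlap along the cluster.

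The 10 gained promoters with the most R100 bases included 2 homeobox genes and 2 forkhead genes. Hoxc13, a Hox gene of hair and nail, went from 0 bp in the parental list to 2117 bp in R100 and 1567 bp in R500. Evx2, a homeobox gene beside the Hoxd cluster, had 50, 1632 and 1132 bp in the same order of lines. The receptor tyrosine kinase gene Pdgfra had 50, 1550 and 550 bp. Forkhead genes were among them with Foxf1a (0, 1550 and 850 bp) and Foxb2 (0, 1420 and 670 bp). Gadd45g, a gene induced by growth arrest and DNA damage, had 100, 1450 and 800 bp upstream, but 1300, 2400 and 1800 bp within 2 kb of its TSS, where it counts as kept. Arhgap26 and 9630014M24Rik share a TSS and the values 50, 1513 and 1113 bp. Plekhh3 (0, 1465 and 815 bp) and Gm9945 (0, 1400 and 1450 bp) complete the list.

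Lost promoters were fewer and lost shorter stretches. The largest was at Als2cr11, with 1100 bp in the parental list, 50 bp in R100 and 400 bp in R500 at 1 of its 2 gene identifiers. Gm17570, whose window overlaps it, had 750, 50 and 400 bp. Arntl, which encodes the clock factor Bmal1, had 700, 50 and 250 bp upstream, and yet 529, 750 and 1000 bp within 2 kb. Camsap2, for a protein of microtubule minus ends, had 650, 0 and 331 bp, Plekha1 650, 100 and 150 bp, and Rc3h1, for the RNA-binding protein roquin, 450, 50 and 0 bp. The chitinase-like genes Chi3l3 and Chi3l4 share a TSS (625, 50 and 150 bp). Prrg4 (550, 117 and 150 bp) and Tmed8 (450, 0 and 100 bp) make up the rest.

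**Figure D2:**
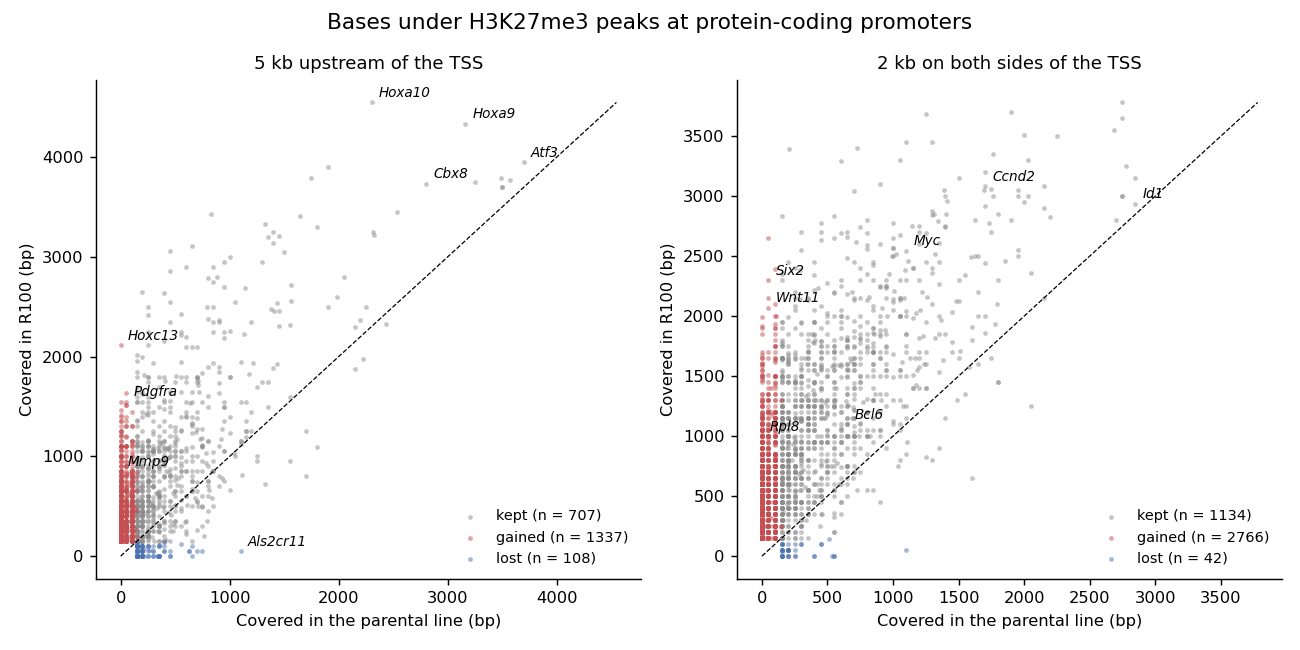
Bases under H3K27me3 peaks at each protein-coding promoter in the parental line (horizontal, bp) and R100 (vertical, bp), 5 kb upstream of the TSS (left) and 2 kb on both sides (right), for gained (red), kept (grey) and lost (blue) promoters, with a dashed line at equal coverage. Most kept promoters lie above the line, 836 of 988 upstream over all genes, and gained upstream windows reach 2117 bp at Hoxc13.

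Gene families that the mark is known for carried it in both lines and more often in R100. Beside the background of 5.97% gained, 3.16% kept and 0.483% lost upstream, 9 of 40 Hox promoters were gained and 24 kept, and none was lost. All 9 gained Hox promoters were also covered in R500, beside 56.8% of all protein-coding promoters gained upstream. Median upstream coverage of Hox genes was 325 bp in the parental and 1400 bp in the R100 list. Summed over the list it was 36.5 and 68.6 kb. Over all protein-coding genes the sums were 460 and 1362 kb, a larger rise in proportion. Hoxd10 (100, 1300 and 1896 bp in the parental line, R100 and R500), Hoxd13 (100, 784 and 350 bp) and Hoxb6 (0, 1000 and 700 bp) were among the gained. Their windows overlap within the clusters, so they are not separate observations.

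Other developmental lists were gained in shares above the background of 5.97% upstream and 12.4% within 2 kb, though not clearly so for each list in the second window. Of 57 LIM, paired, Nkx and related homeobox genes, 9 were gained (15.8%) and 21 kept upstream, and 16 were gained (28.1%) and 20 kept within 2 kb. Six2, a gene of nephron progenitors, was covered over 50, 2300 and 1900 bp within 2 kb, and Lmx1b, a gene of the limb and kidney, over 0, 1481 and 1181 bp. Forkhead genes (43) had 7 gained and 7 kept upstream, Sox and T-box genes (36) had 8 and 4, and Gata and proneural bHLH genes (31) had 9 and 7. Sox7, an endothelial factor, was covered over 100, 1150 and 750 bp upstream, and Gata2, a factor of blood stem cells, over 0, 1066 and 650 bp. None of these 4 lists had a lost promoter in either window. Over all protein-coding genes 0.483% were lost upstream and 0.188% within 2 kb, so lists of this size can have none.

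Signalling, channel and matrix protease genes were also counted against the 5.97% gained upstream and 12.4% gained within 2 kb over all protein-coding genes. Of 29 Wnt ligands and frizzled receptors, 8 were gained (27.6%), 7 kept and 1 lost upstream. Wnt11 was covered over 50, 2072 and 1572 bp within 2 kb. Fgf, Bmp and Gdf ligands (43) had 4 gained (9.30%) and 4 kept upstream, and potassium channel genes (94) had 12 gained (12.8%) and 9 kept. Of 23 matrix metalloproteinase promoters 4 were gained in each window (17.4%), Mmp9 among them with 0, 850 and 1550 bp upstream, while Mmp28 was kept at 1100, 1127 and 1477 bp. Receptor, adhesion and keratin genes in tandem clusters had almost none of the mark in either line. Olfactory and vomeronasal receptor genes (1407) had 0 gained, 2 lost and 0 kept upstream and 1 gained and 1 lost within 2 kb, and 24 clustered protocadherin genes had no peak base. Keratin genes (46) had 1 gained upstream and 3 within 2 kb.

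Ribosomal protein genes showed the largest share of gained promoters of any list within 2 kb of the TSS, while upstream they stayed near the background. Of 85 genes, 52 were gained within 2 kb, beside 12.4% of protein-coding genes, and 9 were kept, whereas upstream 6 were gained, 2 lost and 3 kept. In the first kb downstream 66 (77.6%) had a base of an R100 peak and 25 (29.4%) a base of a parental peak. Over all protein-coding genes these shares were 22.2% and 5.05%. The parental list thus already held peaks at this place in some of the ribosomal protein genes. Rpl8 was covered over 0, 1000 and 500 bp in the parental line, R100 and R500, Rpl11 over 50, 850 and 300 bp and Rps18 over 100, 750 and 500 bp. Rps12 had 100, 750 and 800 bp. Rpl12 was kept, with 600, 950 and 1250 bp. Of the 52 gained, 42 were also covered in R500, beside 50.6% of all protein-coding promoters gained within 2 kb. That share rose with the bases covered in R100, and the 2 sets were not matched for covered length. Ribosomal protein genes have many processed pseudogenes, and reads from near-identical copies can be placed at either, so their values are uncertain.

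Other housekeeping genes were gained above the background of 12.4% within 2 kb and not clearly above the 5.97% upstream. Of protein-coding promoters in groups 4 and 5 of 5 by observed to expected CpG ratio, from the lowest, 20.3 and 22.4% were gained within 2 kb. The lists were not matched to promoters of like CpG ratio. Mitochondrial ribosomal protein genes (76) had 16 gained within 2 kb (21.1%) and 5 upstream (6.58%), and translation factor genes (59) had 13 (22.0%) and 5 (8.47%). Respiratory chain genes (81) had 15 (18.5%) and 5 (6.17%), and proteasome subunit genes (41) had 8 (19.5%) and 0. In the first kb downstream, 20 of 41 proteasome genes had an R100 base and 0 a parental base, beside 22.2% and 5.05% of all protein-coding genes. Eef2, which encodes elongation factor 2, was covered over 0, 950 and 600 bp and Cox6c, for a subunit of cytochrome c oxidase, over 0, 550 and 0 bp. The proteasome genes gained between 200 and 350 bp at those named, such as Psma7 (0, 350 and 0 bp). In R500 none of the 8 gained proteasome promoters, 1 of the 15 respiratory chain and 5 of the 16 mitochondrial ribosomal promoters were covered. Over all protein-coding promoters gained within 2 kb the share was 50.6%, again without matching for covered length. The kept promoter of Psmb3 (800, 2788 and 2100 bp upstream) lies next to that of Pcgf2. Clustered histone genes (67) had 1 gained, 3 lost and 1 kept upstream and 0 gained within 2 kb.

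**Figure D3:**
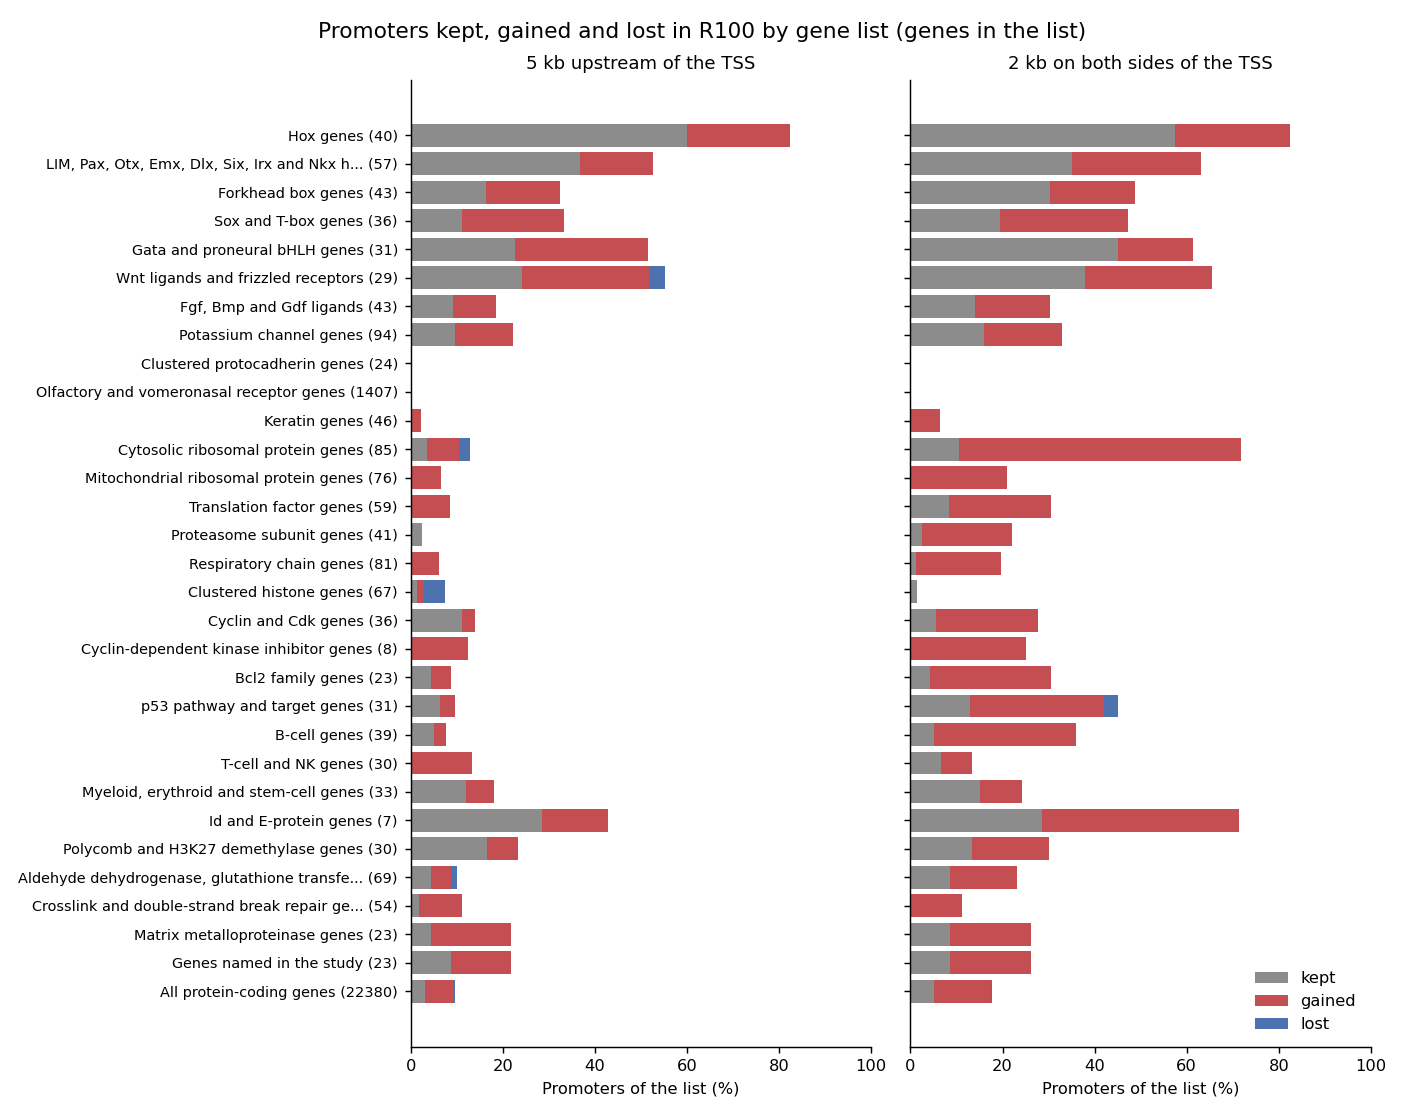
Share of promoters in each of 30 gene lists, and of all protein-coding genes, that were kept (grey), gained (red) or lost (blue) in R100, 5 kb upstream of the TSS (left) and 2 kb on both sides (right), with the number of genes in brackets. Hox genes carry the most kept promoters (24 of 40 upstream), and ribosomal protein genes go from 6 gained upstream to 52 of 85 gained within 2 kb.

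Genes of B-cell identity were gained more often than the background within 2 kb of the TSS and less often upstream, by count alone. The label of both lines is B cell, and the lists measure the mark and not RNA, so identity itself was not checked on expression. Of 39 B-cell genes, 12 were gained (30.8%, beside 12.4% of all protein-coding genes) and 2 kept (5.13%, beside 5.07%) within 2 kb, and 1 was gained upstream (2.56%, beside 5.97%). With the reduced R100 list the gained share within 2 kb was 23.1%, beside 10.6%. Summed over the list, peaks covered 2.05 kb in the parental line and 7.77 kb in R100, and over all protein-coding genes 718 and 2776 kb, a rise of like size. Within 2 kb, 17 genes of the list had an R100 base against 3 with a parental base, beside 6305 and 1858 of all 22380 protein-coding genes. Cd79b, for a chain of the B-cell receptor, was covered over 0, 1000 and 150 bp. Cd24a had 0, 600 and 950 bp, Cd72 0, 400 and 200 bp, and the transcription factor genes Irf4 and Irf8 0, 500 and 150 bp and 0, 300 and 150 bp. Bcl6, the germinal-centre repressor, was kept with 650, 1100 and 850 bp. The promoter of Cd79b is CpG-poor, with an observed to expected CpG ratio of 0.18, where the median of protein-coding promoters gained within 2 kb was 0.745.

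Lists of other blood lineages were too short to tell their gained shares within 2 kb from the background of 12.4%. Wilson intervals of these shares were 1.85 to 21.3% for T-cell and NK genes and 3.14 to 23.6% for myeloid, erythroid and stem-cell genes. T-cell and NK genes (30) had 4 gained upstream (13.3%, beside 5.97%) and 2 gained (6.67%) and 2 kept within 2 kb, with summed coverage of 1.35 kb in the parental line and 3.70 kb in R100. Tbx21, the T-box factor of type 1 T cells, was covered over 0, 700 and 600 bp within 2 kb, and Cd4 over 0, 350 and 0 bp upstream. Myeloid, erythroid and stem-cell genes (33) had 2 gained (6.06%) and 4 kept upstream, and 3 gained (9.09%) and 5 kept within 2 kb, with sums of 7.46 and 11.4 kb. With the reduced R100 list 1 gene of each of these lists was gained within 2 kb. Epor, the erythropoietin receptor gene, was covered over 81, 1081 and 281 bp. Id and E-protein genes, which encode partners of the B-cell factor E2a, had 3 of 7 gained and 2 kept within 2 kb. Tcf3, which encodes E2a itself, was covered over 0, 200 and 300 bp, Tcf12 over 50, 500 and 450 bp, Id3 over 0, 400 and 50 bp, and Id1 over 2850, 2937 and 3137 bp.

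Cell-cycle, apoptosis and DNA damage genes had gained shares within 2 kb that were above the 12.4% of all protein-coding genes for some lists and near it for others. Cyclin and Cdk genes (36) had 8 gained within 2 kb (22.2%) and 1 upstream (2.78%, beside 5.97%). Ccna2, the S-phase cyclin A2, was covered over 0, 650 and 200 bp and Ccnd1 over 0, 550 and 450 bp, while Ccnd2 was kept with 1700, 3085 and 2851 bp. Of 8 Cdk inhibitors 2 were gained (1 with the reduced R100 list), Cdkn1b with 0, 450 and 200 bp and Cdkn1c with 0, 150 and 100 bp. Bcl2 family genes (23) had 6 gained within 2 kb (26.1%), or 4 (17.4%) with the reduced list. The pro-apoptotic Hrk had 0, 750 and 600 bp and Bok 0, 700 and 1150 bp, and the anti-apoptotic Mcl1 had 0, 350 and 150 bp and Bcl2 0, 300 and 50 bp. Genes of both effects on survival were thus among the gained. In the p53 list (31) 9 were gained (29.0%), 1 lost and 4 kept within 2 kb. With the reduced R100 list 5 were gained (16.1%, beside 10.6% of all protein-coding genes). Named members were Btg2, an antiproliferative target, at 50, 800 and 800 bp and Trp53 at 0, 200 and 50 bp. Crosslink and double-strand break repair genes (54) had 5 gained upstream (9.26%) and 6 within 2 kb (11.1%), close to the share of all protein-coding genes in the second window. Fancd2, of the Fanconi anaemia pathway for crosslinks, had 0, 350 and 100 bp in both windows. Aldehyde dehydrogenase, glutathione transferase and drug efflux genes (69), which include enzymes that inactivate cyclophosphamide metabolites, had 3 gained and 1 lost upstream and 10 gained within 2 kb (14.5%, near the background), such as Aldh1a3 (0, 300 and 200 bp) and Abcb1b (0, 400 and 200 bp).

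Genes of the machinery that places, reads or removes the mark had an R100 base within 2 kb at 12 of 30, beside 6305 of all 22380 protein-coding genes. The core PRC2 genes lacked the mark in both lines. Ezh2 and Eed had no covered base in either window and line, Suz12 had none in the parental line and R100, and Kdm6a had none. Of these 30 Polycomb and H3K27 demethylase genes 5 were gained (16.7%, beside 12.4%) and 4 kept (13.3%, beside 5.07%) within 2 kb. Pcgf1 was covered over 0, 900 and 450 bp upstream. Bmi1 had 6, 706 and 206 bp upstream, but 1050, 1050 and 1100 bp within 2 kb, where it counts as kept. Kdm6b was kept upstream with 300, 1027 and 600 bp, all of it over 2 kb from the TSS, and had no covered base within 2 kb in these lines. Among the 23 genes named in the study, 4 were gained within 2 kb and 3 upstream. Myc was covered over 1100, 2546 and 2496 bp within 2 kb and over 0, 600 and 550 bp upstream. Reads from the Myc under the heavy-chain enhancer and from the endogenous gene cannot be told apart. Cdkn2a, the deleted gene, had no base in any window, nor had Bbc3 (Puma) or Sfpi1 (PU.1). Dnmt3b, a DNA methyltransferase, was covered over 0, 550 and 250 bp, and Cdkn1a (p21) over 0, 100 and 0 bp, under the minimum.

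Promoters covered upstream were CpG-rich, whether gained, kept or lost. The observed to expected CpG ratio in 500 bp on each side of the TSS had a median of 0.719 at gained protein-coding promoters upstream, of 0.726 at kept and 0.728 at lost ones, and of 0.503 at promoters covered in neither line. Across 5 groups of equal size of all protein-coding genes by this ratio, from the lowest, the share gained upstream was 1.01, 2.55, 7.36, 9.86 and 9.12%. Within 2 kb it was 1.27, 3.49, 14.3, 20.3 and 22.4%. The share lost upstream was 0.179% in the lowest and 0.939% in the highest group.

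**Figure D4:**
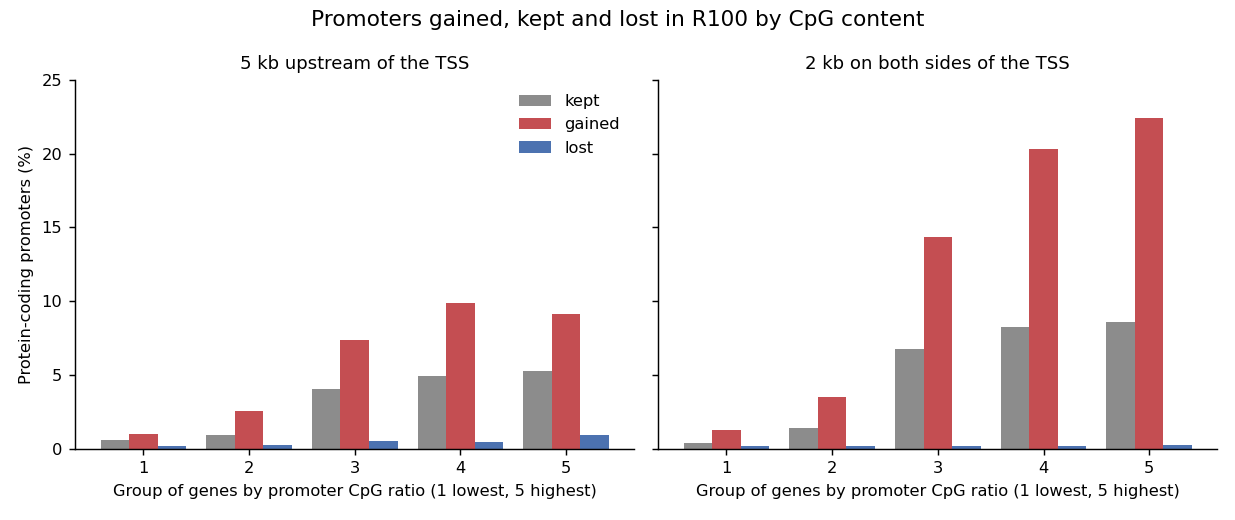
Share of protein-coding promoters kept (grey), gained (red) and lost (blue) in R100, in 5 groups of equal size by the CpG ratio of the promoter, 5 kb upstream of the TSS (left) and 2 kb on both sides (right). The gained share is 1.27% in the lowest and 22.4% in the highest group within 2 kb.

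R500 gave a view of the gained promoters in a list that did not enter the rule, although R500 was grown from the same cells by the same escalation and is no separate culture. Its list also resembles that of R100 in length, with 21888 distinct peaks beside 25180 in R100 and 10778 in the parental line. Both R100 and R500 list each peak 2 times, which the parental list does not. Whether shared processing adds to the overlap was not tested. It was harvested from 500 nM after 18 days. Of the gained upstream promoters 57.0% were also covered in R500 (95% Wilson interval 54.7 to 59.3%, counting error only), beside 95.7% of kept promoters, 31.0% of lost ones and 1.38% of those covered in neither line. The share depended on how much R100 covered. It was 28.8% for gained promoters with 150 to under 200 bp, then 40.2, 66.6 and 92.5% for classes ending below 300, 500 and 1000 bp, and 78 of 78 with at least 1000 bp. Single peaks behaved alike. Of gained peaks of 50 bp 8.41% overlapped an R500 peak, of those of 500 to 950 bp 93.8%, and of the 48 wider ones all did. Lost parental peaks of 50 bp were found in R500 at 9.53%, a share near that of gained peaks of the same width. Of lost peaks of 200 to 450 bp, 36.8% were found in R500, beside 57.2% of gained ones.

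**Figure D5:**
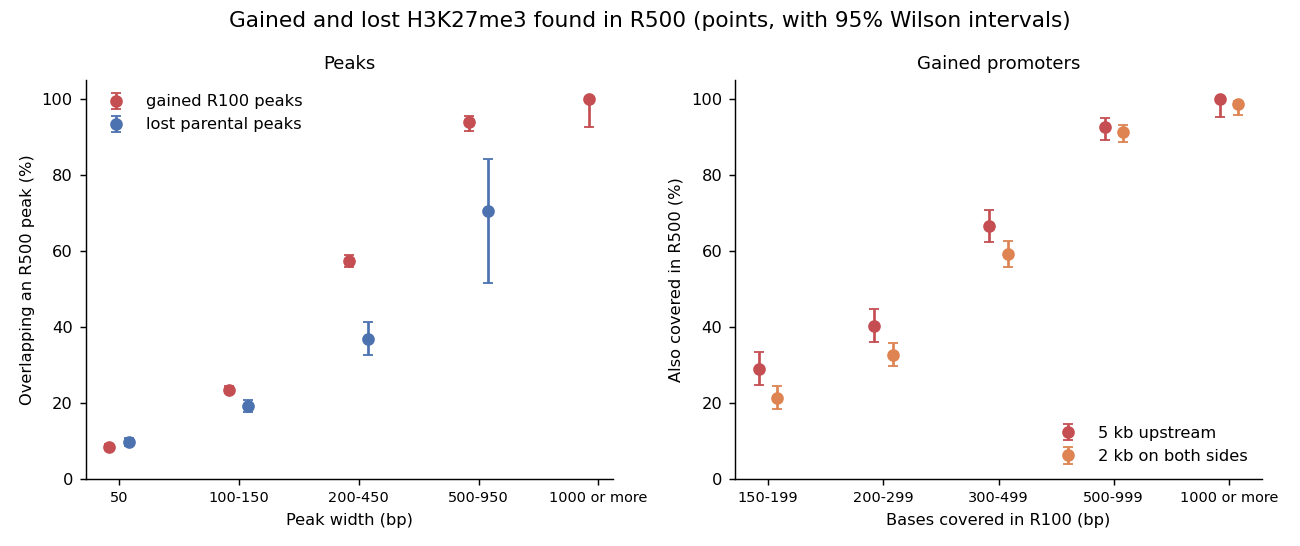
Left, share of gained R100 peaks (red) and lost parental peaks (blue) that overlap an R500 peak, by peak width in bp. Right, share of gained promoters also covered in R500, by bases covered in R100, for the upstream window (red) and 2 kb on both sides (orange), with 95% Wilson intervals for counting error; both shares of gained items climb from under 30% in the shortest class to over 90% from 500 bp on.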

How the data were processed

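H3K27me3 ChIP-seq lists of the parental, R100 and R500 lines were used; the R1000 and R4000 lists served only to count the regions of the series, and the RRBS files were not used. The authors sequenced immunoprecipitated and input libraries, compared their counts window by window along the genome by a Poisson model, and deposited the positions of the peaks in bp (chromosome, start, end). Bowtie and mm9 are named in the submitters' processing notes. The threshold of the lists and any pooling of replicates are not given in the sources used here, and input libraries were not analysed here. Peak ends lie on a grid of 50 bp and were read as 1-based. R100 and R500 list each peak 2 times, and distinct peaks were kept. Depth is unknown.

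Overlaps with GENCODE promoters of NCBIM37 (mm9) were computed with Python 3.11.15, numpy 2.4.6 and pandas 2.3.3 and tested on simulated data. Figures used matplotlib 3.10.9. Sequences were read from the NCBIM37 genome. Intervals are 95% Wilson intervals. With 1 list per line no test was made.

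The members and the 30 gene lists (2635 distinct genes) were chosen with earlier results of these data known. Genes named are the 10 gained, lost and kept upstream promoters with the most bases, in each list up to 6 gained and 3 lost or kept members with the most bases, and genes the study names; regions are the 5 widest of each status. Of these, the text gives those whose role is described, and others by count. Alternatives were other windows, minimums, widths, overlaps, gene sets and list lengths. Some genes of the naming rule are not reported here.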

Additional observations from a re-analysis of the deposited data

How the results depend on the processing

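No paired analysis was possible because there is 1 list per line and no result comes from a test. The window, the covered length and the width of the peaks moved the counts most. Gained promoters numbered 3267 in the window of 2 kb to either side, 3190 with at least 50 bp covered, 1202 with at least 300 bp and 752 with peaks of at least 500 bp, against 1804. Lost promoters numbered 65, 425, 62 and 31 in that order, and 74 where the other line had to have no base, against 145. Kept promoters numbered 1667 with at least 50 bp, 579 with at least 300 bp and 200 with peaks of at least 500 bp, against 988. Gained promoters outnumbered lost ones in each of these settings. With both lists cut to peaks of at least 500 bp, 81.1% of R100 peaks were gained. The share was 70.1% with the R100 list reduced to its widest peaks. It was 93.0% where at least 50% of the peak had to be covered and 65.4% where a peak within 1 kb counted as shared. The share of parental peaks lost was 18.2%, 62.4%, 61.6% and 32.7% in that order. With the other list uncut, 647 of 2249 R100 peaks of at least 500 bp were gained, and 27 of 549 such parental peaks lost. Of gained peaks within 5 kb of a TSS, 39.4% lay in its first kb downstream, 38.3% at TSSs with no other within 5 kb and 42.9% with the reduced list. In a comparison chosen after seeing the data, 52.0% of promoters gained within 2 kb were covered in R500. Of 30 lists, 20 had a gained share above that of all protein-coding genes upstream, 23 within 2 kb and 20 with the reduced list; 24 did with the reduced list within 2 kb, a setting also chosen after seeing the data. Of the genes in the naming rule, 85 of 87 gained upstream and 108 of 119 gained within 2 kb had that status with the reduced list. These genes were chosen for the most covered bases, and the reduction drops only the narrowest R100 peaks. Most of them were therefore bound to keep their status, and the counts are no support for the gains. The parental list kept its 4003 peaks of 50 bp, so the reduction matches the number of peaks and not their widths. Depth is unknown, so how far it sets the narrow peaks was not tested. Leaving out a replicate was not possible with 1 list per line.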

Other observations

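Noncoding genes were counted by the same upstream rule. Long intergenic noncoding RNA genes had the largest gained share of the classes with over 1000 genes, 127 of 1273 (9.98%), with 75 kept and 4 lost. The shares gained were 5.93% of 1552 snoRNA genes, 3.55% of 1577 miRNA genes, 1.76% of 1423 snRNA genes and 0.731% of 5201 pseudogenes. Small RNA genes often lie in introns of other genes, whose peaks they share.

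Immunoglobulin segments are the genes that B cells rearrange. Of 355 V segments 3 were gained (0.845%, beside 4.84% of all genes), 5 lost and 2 kept upstream. Of 88 J segments, which lie close together and share peaks, 4 were gained (4.55%) and 2 kept upstream, and 9 were kept within 2 kb. Of 13 C genes 3 were gained within 2 kb (23.1%, beside 8.76% of all genes). By chromosome, R100 held between 1.74 times the parental number of peaks, on chromosomes 14 and 16, and 3.44 times, on chromosome 11, and the X chromosome held 68 parental and 179 R100 peaks.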
